A study of Mus musculus with 8 samples.

Results

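Oxidative phosphorylation needs the products of a pair of genomes: a small set of membrane subunits is encoded in mitochondrial DNA, and all other subunits are encoded in the nucleus and imported. The genes of this machinery were taken as the protein-coding genes whose GENCODE M21 symbols begin with mt-Nd, mt-Co, mt-Cytb, mt-Atp, Nduf, Uqcr, Cox4 to Cox8 or Atp5, or equal Sdha, Sdhb, Sdhc or Sdhd, with 10 or more counts in at least 4 of 8 libraries. Of 48440 genes in the table, 106 matched by symbol and 100 were kept. They were 13 mitochondrial mRNAs and 87 nuclear genes, and the nuclear genes comprised 75 structural subunits, 8 complex I assembly factors (Ndufaf1 to Ndufaf8), 2 tissue isoforms of complex IV, the supercomplex factor Cox7a2l and the coupling factor Atp5s.

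RNA was sequenced from the whole liver of 8 neonatal CD1 mice, killed at 3 to 8 days of age. The 4 Myo5b KO livers (animals 275, 276, 277 and 278) lacked Myo5b through a deletion in the germline, so the gene was lost in every cell type and not in hepatocytes alone. The control livers came from 4 littermates that were heterozygous or wildtype, animals 279, 280, 281 and 282; which of them carried 1 deleted copy is not given in the labels, nor are the age, sex and litter of any pup. Myo5b encodes myosin Vb, a motor that moves recycling endosomes along actin towards the apical membrane of epithelial cells.

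In the inner mitochondrial membrane, complexes I, III and IV pass electrons to oxygen and pump protons, complex II feeds in electrons from succinate, and ATP synthase uses the proton gradient to make ATP. Mitochondrial DNA is transcribed as long precursors from both strands, which are then cut into mRNAs, rRNAs and tRNAs, whereas the nuclear subunit genes are scattered over the chromosomes and each has its own promoter. Hepatocytes are rich in mitochondria, and the liver of a newborn mouse is also a site of red blood cell formation.

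Library totals ran from 14228268 to 18398039 counts. Myo5b itself was at 43.1 to 59.5 CPM in Myo5b KO livers and 94 to 172 CPM in control livers (log2 fold change -1.43, SE 0.18, adjusted p = 3.14e-04), so counts of the targeted gene remained in every knockout. Over all 18274 genes tested, 1694 were higher and 2088 lower in Myo5b KO livers at an adjusted p under 0.05 (edgeR quasi-likelihood test, Benjamini-Hochberg), and the median log2 fold change was 0.01. The hepatocyte markers were abundant in every library, at 87000 to 101000 summed CPM in Myo5b KO livers and 110000 to 140000 in control livers; 3 of 12 genes were lower and 1 was higher, with a median of -0.04. Alb made that gap, with 27200 to 36900 CPM in Myo5b KO livers and 57200 to 76300 in control livers, while the other 11 summed to 59800 to 64900 CPM in Myo5b KO livers and 52800 to 65500 in control livers. Levels in CPM are counts relative to library size, scaled by TMM. Erythroid markers were lower for 16 of 16 genes tested, with 2184 to 4490 summed CPM in Myo5b KO livers and 8805 to 11653 in control livers. Cycling cell markers were lower for 8 of 8 genes tested, with 762 to 1120 summed CPM in Myo5b KO livers and 1990 to 2570 in control livers. Markers of Kupffer cells and macrophages were higher for 11 of 12 genes and endothelial markers for 6 of 8. Stellate cell markers were higher for 3 of 8, with a median of 0.07. Their sums overlapped, at 773 to 873 CPM in Myo5b KO livers and 818 to 882 in control livers. Knockout 278 stood apart from the other knockouts, with the highest erythroid and cycling cell sums of its group. Knockout 276 and controls 280 and 282 held striated muscle transcripts, with 322, 133 and 85.9 summed CPM, against 16.1 to 24.6 in the other 5 libraries. Control 280 also held nearly all counts of Ucp1, the uncoupling protein of brown fat. In bulk tissue, fewer cells of a type and less RNA per cell cannot be told apart.

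The mRNAs of the mitochondrial genome were about 2-fold lower in Myo5b KO livers. Of the 13, 12 were lower, 0 were higher and mt-Nd3 was not called, with a median log2 fold change of -1.08 and a range of -1.42 to -0.41. Among all genes tested, 20.7% were called in either direction and 11.4% were called lower. The Myo5b KO values all lay below the control values for 12 of the 13, as they did for 12.8% of all genes tested. DESeq2 and limma-voom each called the same number lower and 0 higher, and 0 were higher at an unadjusted p under 0.05.

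Complex I, NADH dehydrogenase, takes 7 of its subunits from mitochondrial DNA. In the lists that follow, values stand in the order of the animal numbers. mt-Nd5, a proton-pumping subunit (chrM:11742-13565 on GRCm38), had 45.2, 46.8, 49.0 and 68.9 CPM in Myo5b KO livers, against 125, 139, 136 and 105 CPM in control livers. mt-Nd4, another pump subunit, had 31.8, 28.4, 26.7 and 39.4 CPM in Myo5b KO livers, against 60.2, 64.6, 71.8 and 63.8 CPM in control livers. mt-Nd4l, encoded next to it, had 1.97, 3.77, 2.79 and 5.52 CPM in Myo5b KO livers, against 8.12, 9.59, 10.6 and 9.26 CPM in control livers. For all 3 genes the groups were apart, and knockout 278 was the highest of the knockouts. The log2 fold changes were -1.26 (SE 0.13, adjusted p = 1.80e-05) for mt-Nd5, -1.04 (SE 0.12, adjusted p = 9.62e-06) for mt-Nd4 and -1.42 (SE 0.27, adjusted p = 0.00101) for mt-Nd4l.

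mt-Nd1, which helps to form the quinone site, had 44.6, 38.5, 42.6 and 50.5 CPM in Myo5b KO livers, against 83.1, 83.1, 98.1 and 71.0 CPM in control livers. For mt-Nd2 the values were 52.7, 47.2, 42.9 and 56.3 CPM in Myo5b KO livers, against 82.4, 86.3, 87.9 and 88.2 CPM in control livers. These were among the smaller falls, at -0.93 (SE 0.11, adjusted p = 1.43e-05) and -0.79 (SE 0.09, adjusted p = 1.55e-05) on the log2 scale, and again no knockout value reached a control value. mt-Nd6 (chrM:13552-14070) is the only mRNA of the 13 that lies on the other, light strand, with its own precursor. It had 24.9, 18.8, 20.2 and 27.3 CPM in Myo5b KO livers, against 49.4, 51.1, 55.4 and 49.0 CPM in control livers, a log2 fold change of -1.17 (SE 0.12, adjusted p = 5.21e-06). Without a strand setting, its reads cannot be told from antisense RNA over the same bases. mt-Nd3 (chrM:9459-9806), a small subunit of the membrane arm, had 2.09, 2.49, 2.63 and 2.49 CPM in Myo5b KO livers, against 3.57, 3.55, 2.55 and 3.23 CPM in control livers. Its groups touched, since control 281 lay below knockout 277, and its log2 fold change of -0.41 (SE 0.28, adjusted p = 0.344) rested on 36 to 55 counts per library.

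Complex III has 1 mitochondrial subunit, cytochrome b. mt-Cytb had 46.8, 41.6, 42.6 and 63.8 CPM in Myo5b KO livers, against 99.7, 105, 108 and 99.6 CPM in control livers. Its controls spread little and its knockouts were all well under them, with a log2 fold change of -1.08 (SE 0.12, adjusted p = 9.20e-06).

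Complex IV, cytochrome c oxidase, has its catalytic core made of 3 mitochondrial subunits. mt-Co1 (chrM:5328-6872), which carries the site where oxygen is reduced, had 50.2, 41.0, 45.8 and 70.2 CPM in Myo5b KO livers, against 125, 144, 142 and 121 CPM in control livers. mt-Co2, which accepts electrons from cytochrome c, had 10.1, 7.41, 8.11 and 14.7 CPM in Myo5b KO livers, against 19.0, 29.5, 22.1 and 25.3 CPM in control livers. mt-Co3 had 10.4, 9.59, 8.64 and 14 CPM in Myo5b KO livers, against 17.4, 22.1, 22.8 and 18.7 CPM in control livers. In all 3 the highest knockout, 278, stayed under the lowest control. mt-Co1 averaged 51.8 ± 12.8 CPM in Myo5b KO livers and 133 ± 11.9 CPM in control livers (SD, n = 4 each), which is 2.57-fold lower. Log2 fold changes were -1.36 (SE 0.15, adjusted p = 3.51e-05) for mt-Co1, -1.25 (SE 0.20, adjusted p = 4.69e-04) for mt-Co2 and -0.93 (SE 0.17, adjusted p = 7.06e-04) for mt-Co3.

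ATP synthase has 2 mitochondrial subunits, both in its membrane part. mt-Atp6, which lines the proton channel, had 24.1, 25.8, 24.8 and 29.2 CPM in Myo5b KO livers, against 55.3, 53.0, 53.1 and 48.9 CPM in control livers. mt-Atp8 had 2.26, 1.02, 1.37 and 1.88 CPM in Myo5b KO livers, against 2.73, 4.29, 4.22 and 4.00 CPM in control livers. Both were lower in every knockout, with log2 fold changes of -1.02 (SE 0.10, adjusted p = 3.04e-06) for mt-Atp6 and -1.22 (SE 0.33, adjusted p = 0.0132) for mt-Atp8. The call for mt-Atp8 was lost without the 3 libraries that held muscle transcripts (log2 fold change -0.92, adjusted p = 0.211). Some of these genes overlap: mt-Atp8 and mt-Atp6 share 43 bases, mt-Nd5 and mt-Nd6 share 14 bases on opposite strands, mt-Nd4l and mt-Nd4 share 7, and mt-Atp6 and mt-Co3 share 1. Whether reads were counted by strand is not given in the sources used here, and reads in these overlaps cannot be assigned to 1 gene.

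**Figure D1:**
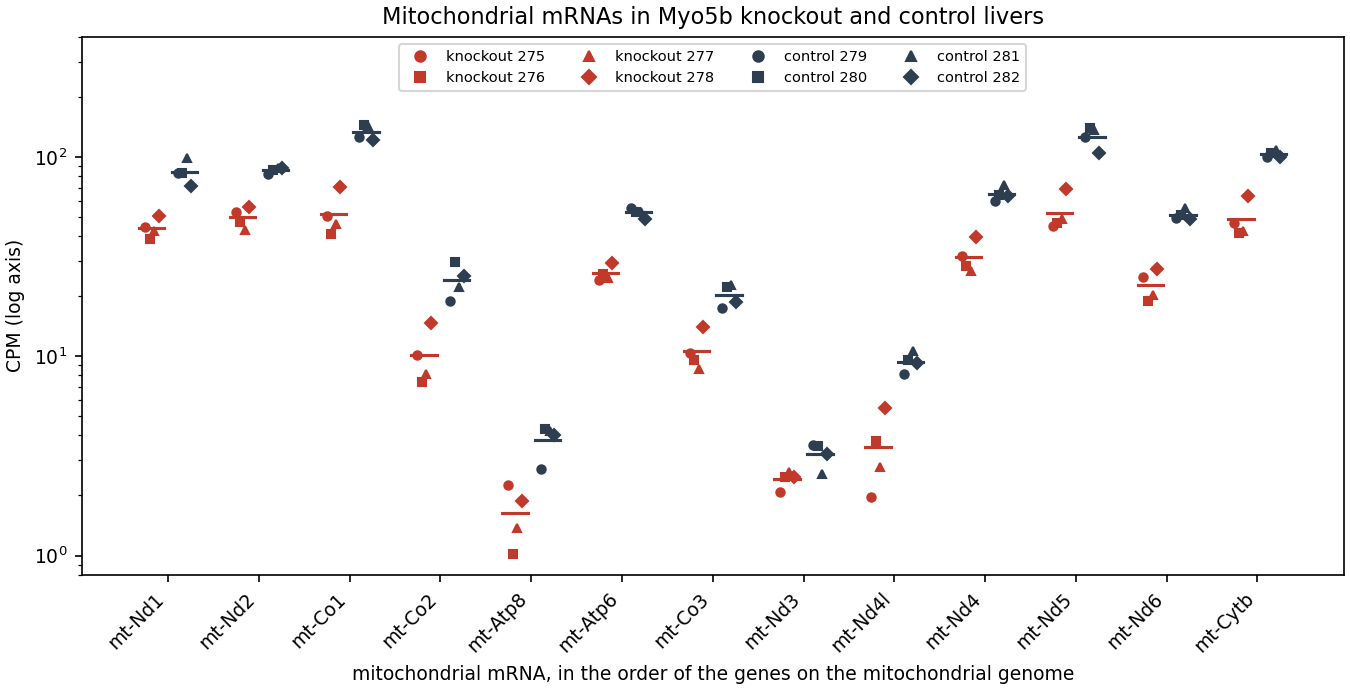
CPM of the 13 mitochondrial mRNAs on a log axis, with genes in genome order, each point 1 liver (Myo5b KO in red, control in dark blue, symbols as in the legend) and each line the group mean. Myo5b KO livers lie below control livers for every gene except mt-Nd3, where the groups touch.

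The rRNAs of the mitochondrial ribosome, which are outside the rule, fell as well. mt-Rnr1, the small-subunit rRNA, had 442, 398, 374 and 503 CPM in Myo5b KO livers, against 757, 779, 856 and 845 CPM in control livers, a log2 fold change of -0.91 (SE 0.10, adjusted p = 5.5e-06). mt-Rnr2, the large-subunit rRNA, had 1515, 1375, 1212 and 1759 CPM in Myo5b KO livers, against 2717, 2784, 2772 and 2487 CPM in control livers, a log2 fold change of -0.88 (SE 0.10, adjusted p = 1.56e-05). All 4 knockouts were below all 4 controls for both.

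Mitochondrial mRNAs took a small share of each library, at 0.0348%, 0.0323%, 0.0328% and 0.0453% of counts in Myo5b KO livers, against 0.0704%, 0.0747%, 0.0807% and 0.0708% in control livers. The means were 0.0363% ± 0.00608 in Myo5b KO livers and 0.0741% ± 0.00475 in control livers (SD, n = 4 each), a 2.04-fold difference. These shares rest on 4889 to 7319 counts per Myo5b KO library and 10073 to 13718 per control library.

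Much of the signal that matches mitochondrial mRNAs was counted elsewhere. Copies of mitochondrial DNA are inserted in nuclear chromosomes, and 8 annotated copies of 7 mitochondrial mRNAs (at least 97% identical over at least 150 bases) held counts of their own. Of these, 7 lie on chromosome 1 between positions 24611535 and 24616197, all on the minus strand and in the order of the mitochondrial genes, and 1 lies on chromosome 2. Gm28437, identical to mt-Co3 over 783 bases, held 5707 counts over the 8 libraries, against 1971 for mt-Co3 itself. Gm28661, identical to mt-Co2 over 681 bases, held 5323 counts against 2152, whereas Gm28439, identical to mt-Nd4 over 876 bases, held 2079 counts against 6157. Where the letters are the same, a short read cannot show which locus it came from, and the treatment of reads that match several places is not given in the sources used here. The stretches below, from GENCODE M21 on GRCm38, are shown because they hold the letters that tell a mitochondrial mRNA from its copies. Capitals in a copy mark letters that differ from the mitochondrial gene, and capitals in a mitochondrial gene mark letters that differ from any copy shown.
mt-Nd3, chrM:9459-9518, plus strand: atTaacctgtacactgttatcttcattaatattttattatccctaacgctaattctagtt
Gm28438, chr1:24613060-24613119, minus strand: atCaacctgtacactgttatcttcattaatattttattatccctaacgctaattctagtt
mt-Co1, chrM:6390-6449, plus strand: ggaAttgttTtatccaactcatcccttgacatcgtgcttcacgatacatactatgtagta
Gm29216, chr1:24616129-24616188, minus strand: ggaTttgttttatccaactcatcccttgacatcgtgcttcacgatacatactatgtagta
Gm13340, chr2:22588526-22588585, minus strand: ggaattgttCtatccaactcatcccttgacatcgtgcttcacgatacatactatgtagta

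The copies were lower as well: 8 of 8 (11.4% of all genes tested), with a median log2 fold change of -1.0 and a range of -1.43 to -0.50. Several copies are identical to their gene over the aligned bases. The same reads could be counted at either place, so this is not a result separate from that of the genes. Gm28438, which differs from mt-Nd3 at 1 of 345 aligned bases, averaged 7.16 ± 0.525 CPM in Myo5b KO livers and 10.1 ± 1.34 CPM in control livers (SD, n = 4 each). Its log2 fold change was -0.50 (SE 0.17, adjusted p = 0.0487). Gm13340, which matches mt-Co1 at 97.6% over 1545 bases, averaged 2.85 ± 1.45 CPM in Myo5b KO livers and 7.67 ± 0.596 CPM in control livers, a log2 fold change of -1.43 (SE 0.30, adjusted p = 0.00226). When the counts of all copies were added to the gene they match, a step chosen after the counts were seen, 13 of 13 mitochondrial mRNAs were called lower, with a median of -1.05. mt-Nd3 then had a log2 fold change of -0.48 (SE 0.15, adjusted p = 0.0295), still the smallest fall of the 13. The share of counts became 0.0517% ± 0.00803 in Myo5b KO livers and 0.103% ± 0.00629 in control livers, a 1.99-fold difference.

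**Figure D2:**
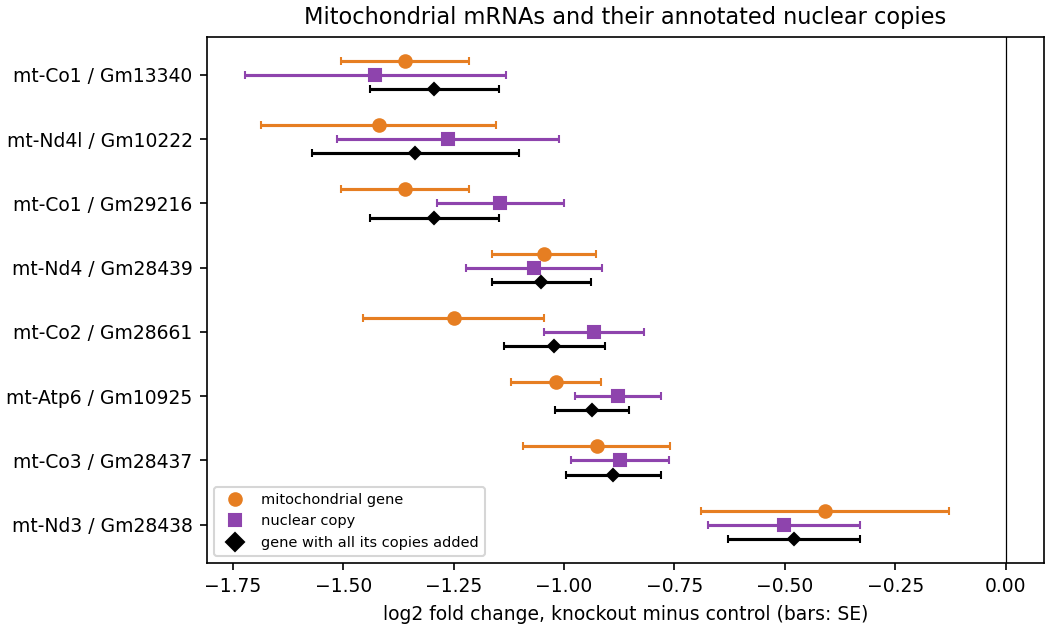
Log2 fold changes (Myo5b KO minus control, bars ± SE) of mitochondrial mRNAs (orange circles), of each annotated nuclear copy (purple squares) and of the gene with all its copies added (black diamonds). All points lie below 0, and the mt-Nd3 group lies nearest to it, at -0.41, -0.50 and -0.48.

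The nuclear genes showed smaller and fewer differences. Of 87 tested, 22 were lower (25.3%, against 11.4% of all genes), 0 were higher (9.27% of all genes) and 65 were not called. The median log2 fold change was -0.24, the range -1.27 to 0.33, and 75 of 87 were fitted below 0. Without Ndufa4l2, which passed the count rule only through the control livers, the median was -0.23, the lowest value -1.10 (Cox6b2), and 74 of 86 lay below 0. At an unadjusted p under 0.05, 48 were below 0 (47 without Ndufa4l2) and 2 above, against 3085 and 2868 of all 18274 genes. DESeq2 and limma-voom called 21 and 23 lower and 0 higher. Myo5b KO values lay all below control values for 32 genes (31 without Ndufa4l2), against 12.8% of all genes. They lay all above control values for 2, Ndufs7 and Ndufa6, against 10.8% of all genes. With library size as the only scaling, which moved the median of all genes to 0.08, the nuclear median was -0.17, 17 genes were lower, and Ndufs7 and Ndufa6 were higher. Of the 22, 13 stayed lower in each of 8 fits that left out 1 library, and those 8 fits called 15 to 23 nuclear genes lower, the fewest without control 280. Without knockout 276 and controls 280 and 282, which held muscle transcripts, 0 nuclear genes were called and their median was -0.21. Of the 87, 21 had an unadjusted p under 0.05 in that fit, a share close to that of all genes (4240 of 18235). It called 1592 of all genes in either direction, and 11 of 13 mitochondrial mRNAs were still lower.

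**Figure D3:**
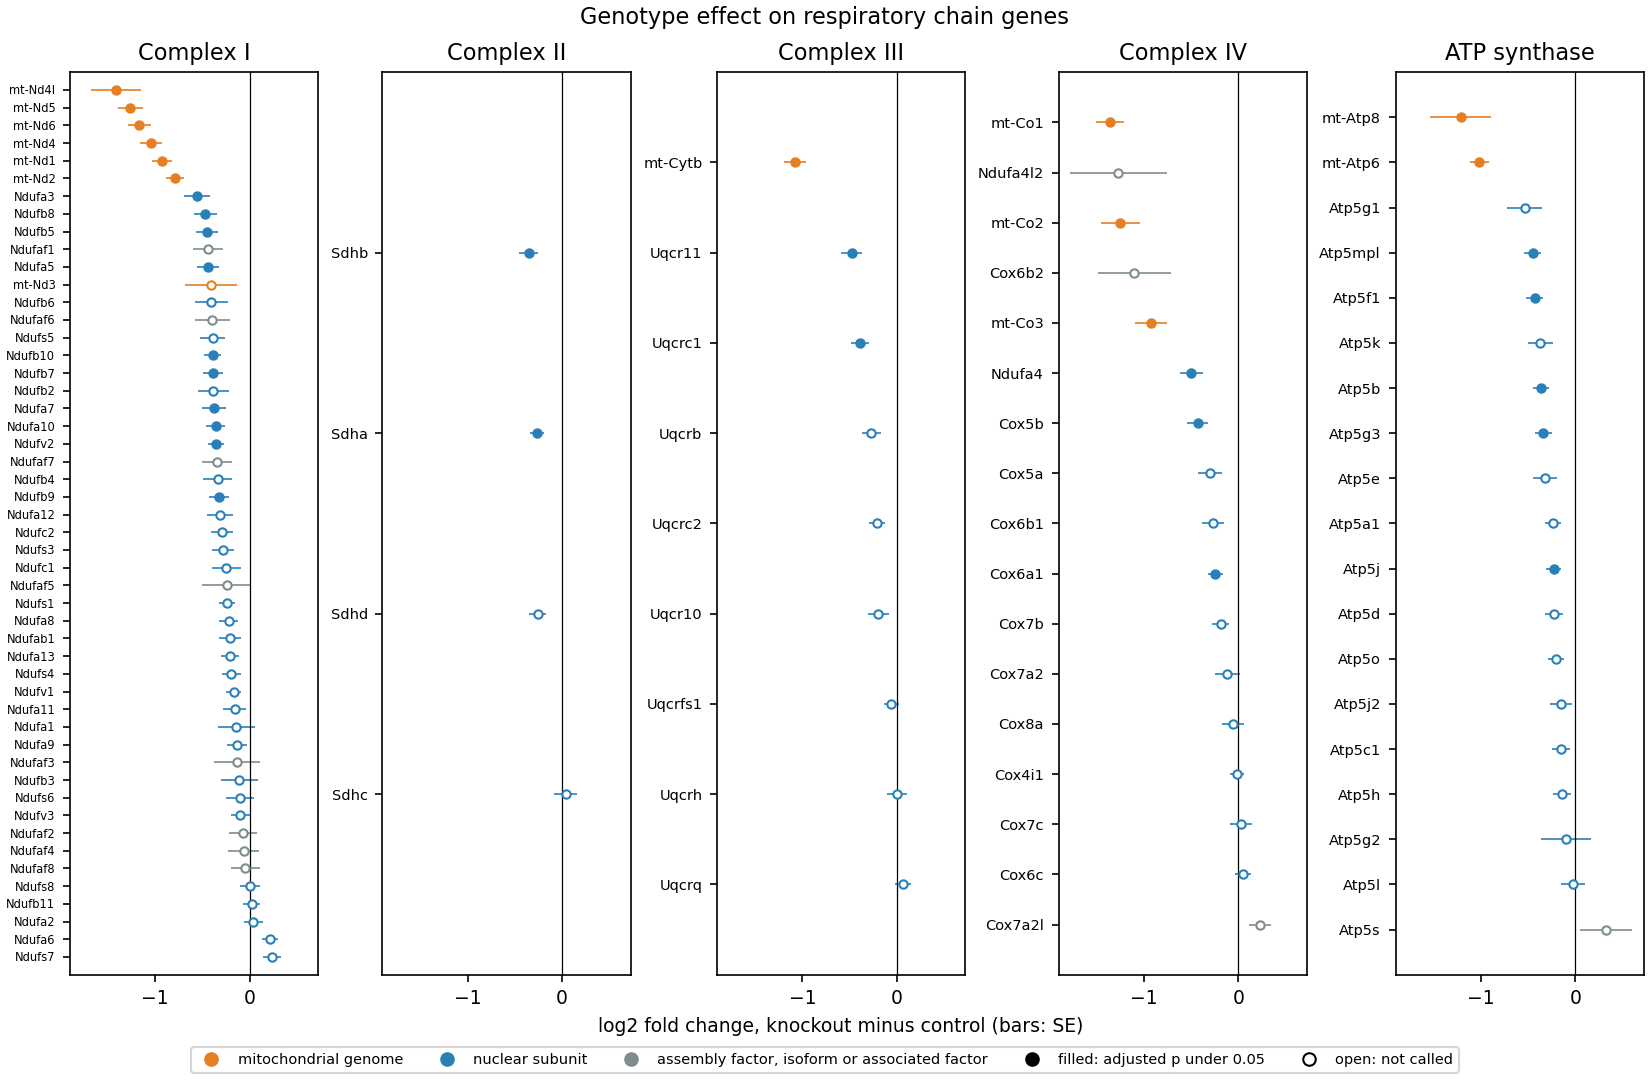
Log2 fold change (Myo5b KO minus control, bars ± SE) of 99 of the 100 respiratory chain genes by complex; filled points passed the threshold and colours give the genome and kind of gene. Mitochondrial mRNAs other than mt-Nd3 lie left of every nuclear subunit of their complex, and nuclear subunits lie between -0.56 and 0.24.

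Among nuclear subunits of complex I, 10 of 36 were lower (27.8%, against 11.4% of all genes tested). They were 1 of 7 core subunits (14.3%) and 9 of 29 accessory subunits (31.0%), and whether these shares differ was not tested. The core subunit was Ndufv2 (chromosome 17), an iron-sulfur protein of the NADH-oxidising tip, with 55.5, 53.9, 54.9 and 58.6 CPM in Myo5b KO livers, against 67.5, 79.0, 67.4 and 71.0 CPM in control livers. Ndufb10 (chromosome 17), an accessory subunit of the membrane arm, had 79.7, 73.0, 92.4 and 80.7 CPM in Myo5b KO livers, against 107, 116, 99.0 and 106 CPM in control livers. Ndufa3 (chromosome 7) had 12.6, 12.8, 12.2 and 14.7 CPM in Myo5b KO livers, against 18.7, 21.5, 19.7 and 17.2 CPM in control livers. The groups were apart in all 3, and Ndufa3 had the largest fall of the 75 nuclear subunits. Log2 fold changes were -0.35 (SE 0.09, adjusted p = 0.00698) for Ndufv2, -0.39 (SE 0.09, adjusted p = 0.00445) for Ndufb10 and -0.56 (SE 0.13, adjusted p = 0.00666) for Ndufa3. The other accessory subunits that fell were Ndufb8 (-0.47), Ndufb5 (-0.45), Ndufa5 (-0.44), Ndufb7 (-0.39), Ndufa7 (-0.38), Ndufa10 (-0.36) and Ndufb9 (-0.32), with adjusted p from 0.0109 to 0.0379. In Ndufb9 the groups touched, since knockout 275 at 97.7 CPM lay above controls 279 and 281 at 97.2 and 96.3 CPM. By gene limits on either strand, Ndufa3, Ndufb5 and Ndufb8 overlap Tfpt, Mrpl47 and Gm20538, and Ndufa10 and Ndufv2 overlap Mir6900 and Gm23264. Reads in such overlaps may belong to either gene.

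The other 26 nuclear subunits of complex I were not called by edgeR; limma-voom also called Ndufs5 lower (adjusted p = 0.0387, against 0.0515 with edgeR). Ndufs7, the core subunit next to the quinone site, had 51.7, 47.6, 54.7 and 49.8 CPM in Myo5b KO livers, against 39.7, 44.9, 46.5 and 41.6 CPM in control livers. Ndufa6, an accessory subunit, had 150, 124, 130 and 124 CPM in Myo5b KO livers, against 116, 122, 111 and 108 CPM in control livers. All knockouts were above all controls for both, but neither passed the test, at log2 fold changes of 0.24 (SE 0.09, adjusted p = 0.0831) and 0.21 (SE 0.09, adjusted p = 0.0876). Ndufs8, a core subunit as well, had a log2 fold change of 0.00 with an SE of 0.10. Ndufs1, the largest core subunit, just missed the threshold at -0.24 (adjusted p = 0.0508). None of the 8 assembly factors Ndufaf1 to Ndufaf8 was called, with a median of -0.19 and 3 below 0 at an unadjusted p under 0.05; DESeq2 called 0 of them and limma-voom called Ndufaf1 lower (adjusted p = 0.0429, against 0.0607 with edgeR).

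Complex II has no mitochondrial subunit, so all of its 4 genes are nuclear. Sdha, the flavoprotein that oxidises succinate, had 249, 236, 251 and 247 CPM in Myo5b KO livers, against 293, 322, 277 and 292 CPM in control livers. Sdhb, its iron-sulfur partner, had 82.1, 73.6, 74.7 and 68.3 CPM in Myo5b KO livers, against 90.7, 112, 97.3 and 81.3 CPM in control livers. Both were called lower, Sdha with its groups apart and Sdhb with knockout 275 above control 282. By gene limits, Sdha overlaps Gm16125. The log2 fold changes were -0.27 (SE 0.08, adjusted p = 0.0201) for Sdha and -0.35 (SE 0.10, adjusted p = 0.0179) for Sdhb; without control 280, Sdha and Sdhb were not called. The membrane anchors were not called: Sdhd stood at -0.26 (adjusted p = 0.0545) and Sdhc at 0.04 (adjusted p = 0.868). Sdhc had 105, 88.9, 85.7 and 70.5 CPM in Myo5b KO livers, against 78.6, 104, 79.7 and 78.5 CPM in control livers, with wide overlap.

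In complex III, 2 of 8 nuclear subunits were lower (25.0%, against 11.4% of all genes tested). Uqcrc1, a large core protein on the matrix side, had 170, 138, 158 and 149 CPM in Myo5b KO livers, against 202, 237, 189 and 181 CPM in control livers. Uqcr11, a small membrane subunit, had 31.2, 25.8, 32.0 and 28.8 CPM in Myo5b KO livers, against 36.9, 44.8, 37.4 and 45.1 CPM in control livers. Neither pair of groups overlapped, and the log2 fold changes were -0.39 (SE 0.10, adjusted p = 0.00694) for Uqcrc1 and -0.48 (SE 0.11, adjusted p = 0.00564) for Uqcr11. Uqcrb stood at -0.27 (adjusted p = 0.0721), and Uqcrfs1, the Rieske iron-sulfur protein, at -0.06 (adjusted p = 0.673). Uqcrq, the highest of the 8 per length, averaged 282 ± 16.8 CPM in Myo5b KO livers and 269 ± 19.9 CPM in control livers (SD, n = 4 each) and was not called (log2 fold change 0.07, SE 0.08, adjusted p = 0.627).

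In complex IV, 3 of 11 nuclear subunits that all tissues use were lower (27.3%, against 11.4% of all genes tested). Cox5b, a zinc-binding subunit on the matrix side, had 30.9, 37.4, 33.6 and 29.9 CPM in Myo5b KO livers, against 40.3, 50.5, 41.4 and 45.6 CPM in control livers. Ndufa4, named for complex I but now placed in complex IV, had 27.4, 21, 25.5 and 28.0 CPM in Myo5b KO livers, against 38.4, 41.7, 32.5 and 31.2 CPM in control livers. Cox6a1 had 66.7, 64.9, 65.8 and 61.7 CPM in Myo5b KO livers, against 76.6, 84.4, 72.8 and 72.6 CPM in control livers. All 3 had groups apart, at log2 fold changes of -0.43 (SE 0.11, adjusted p = 0.00948), -0.50 (SE 0.13, adjusted p = 0.01) and -0.24 (SE 0.08, adjusted p = 0.0497). The call of Cox6a1 was lost in each of the 8 fits that left out 1 library, with DESeq2 and with limma-voom. Cox4i1, the subunit that binds early in assembly, averaged 190 ± 7.37 CPM in Myo5b KO livers and 191 ± 12.7 CPM in control livers, a log2 fold change of -0.01 (SE 0.08, adjusted p = 0.937). In the same complex mt-Co1 was 2.57-fold lower.

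ATP synthase had 5 of 16 nuclear subunits lower (31.2%, against 11.4% of all genes tested). Atp5b, the catalytic beta subunit of the soluble head, had 600, 563, 631 and 570 CPM in Myo5b KO livers, against 753, 861, 712 and 711 CPM in control livers. Atp5f1, which belongs to the peripheral stalk, had 99.1, 88.8, 100 and 93.6 CPM in Myo5b KO livers, against 117, 145, 135 and 117 CPM in control livers. Atp5mpl, a small membrane subunit, had 80.9, 74.8, 86.6 and 84.5 CPM in Myo5b KO livers, against 110, 126, 107 and 104 CPM in control livers. The groups were apart in all 3, and Atp5mpl had the smallest p of the nuclear genes. By gene limits, Atp5f1 overlaps Wdr77 and Gm42890, and Atp5b overlaps Mir677 and Snord59a. Log2 fold changes were -0.36 (SE 0.09, adjusted p = 0.00614) for Atp5b, -0.43 (SE 0.09, adjusted p = 0.00242) for Atp5f1 and -0.45 (SE 0.09, adjusted p = 0.00128) for Atp5mpl. Atp5g3, a gene for the proton-carrying c ring, fell by 0.34 (adjusted p = 0.0123) and Atp5j, a stalk subunit, by 0.23 (adjusted p = 0.0481) on the log2 scale; Atp5j shares its locus with Gabpa and lost its call without any 1 of 6 libraries, with DESeq2 and with limma-voom. Atp5g1, which encodes the same c subunit as Atp5g3, stood at -0.53 (SE 0.19, adjusted p = 0.0526). The alpha subunit Atp5a1, the highest nuclear gene per length, averaged 730 ± 46.8 CPM in Myo5b KO livers and 860 ± 82.7 CPM in control livers, and was not called (log2 fold change -0.24, adjusted p = 0.0681) though its groups did not overlap. Atp5s stood at 0.33 (SE 0.28, adjusted p = 0.463).

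**Figure D4:**
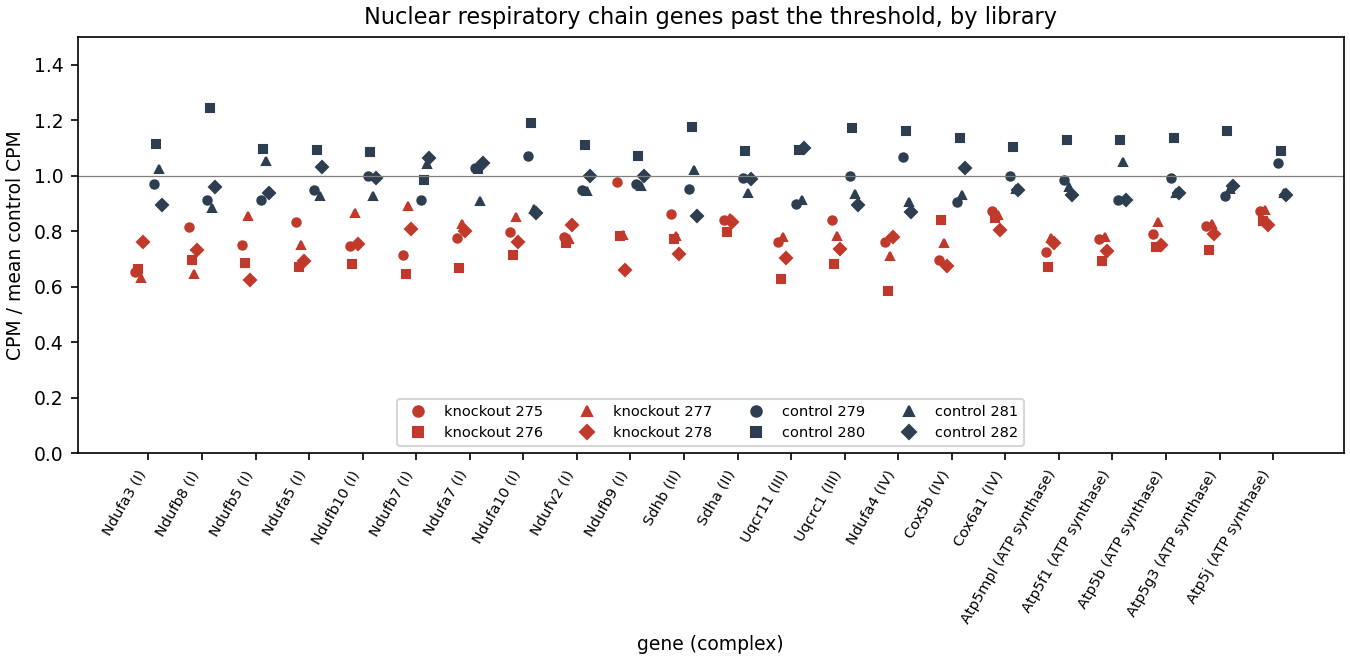
CPM of the 22 nuclear genes called lower, each divided by its mean in control livers, with 1 point per liver (Myo5b KO in red to the left, control in dark blue). Myo5b KO points lie under control points for all of them except Sdhb and Ndufb9, and control 280 (dark blue squares) is often the highest point.

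The complexes also have subunits used mainly in other tissues. Cox6b2, known from testis, had 1.16, 1.53, 0.948 and 0.728 CPM in Myo5b KO livers, against 2.47, 1.68, 2.26 and 3.02 CPM in control livers. Ndufa4l2, a hypoxia-induced relative of Ndufa4, had 0.406, 0.511, 0.474 and 0.364 CPM in Myo5b KO livers, against 0.779, 1.27, 0.772 and 1.47 CPM in control livers. The groups were apart in both, but edgeR called neither, at log2 fold changes of -1.10 (SE 0.39, adjusted p = 0.0531) for Cox6b2 and -1.27 (SE 0.51, adjusted p = 0.0924) for Ndufa4l2. Cox6b2 lay at the threshold: DESeq2 and limma-voom called it lower, with adjusted p of 0.0475 and 0.047. Ndufa4l2 lay just inside the rule, with 10 or more counts in 4 libraries, all of them controls, so that it could enter only through the group where it was higher; the other 99 genes had 10 or more counts in all 8. Cox7a2l, which helps to join complexes III and IV, stood at 0.23 (adjusted p = 0.198).

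Left out were 6 genes. Cox7a1, the heart and muscle isoform of Cox7a, lay just outside with 10 or more counts in 3 libraries, at 8, 46, 17 and 10 counts in Myo5b KO livers, against 5, 9, 5 and 4 counts in control livers. Cox6a2, the muscle isoform of Cox6a, had 0, 24, 0 and 2 counts in Myo5b KO livers, against 0, 0, 0 and 2 counts in control livers. Cox8b had 0, 16, 3 and 6 counts in Myo5b KO livers, against 4, 9, 3 and 7 counts in control livers, and Cox4i2, the lung isoform, had 17, 5, 3 and 2 counts in Myo5b KO livers, against 4, 7, 4 and 3 counts in control livers. The highest counts of Cox7a1, Cox6a2 and Cox8b were in knockout 276, the library with the highest striated muscle sum; whether that tissue gave them was not tested. Cox7b2 and Cox8c had 0 counts in all 8 libraries, which allows up to 0.163 to 0.211 CPM in a library, unscaled (3 counts, for counting error only).

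Setting the genomes side by side within a library removes the library's scaling. For each 100 counts on nuclear structural subunits there were 5.58, 5.5, 5.19 and 7.94 counts on mitochondrial mRNAs in Myo5b KO livers, against 11, 10.5, 12.4 and 10.8 in control livers. Mean log2 CPM of the mitochondrial mRNAs minus that of the 75 nuclear subunits was -1.62, -1.61, -1.69 and -1.10 in Myo5b KO livers, against -0.70, -0.71, -0.55 and -0.65 in control livers. No knockout reached the control range, and knockout 278 was the nearest to it. The means were -1.51 ± 0.27 in Myo5b KO livers and -0.65 ± 0.08 in control livers (SD, n = 4 each), a difference of -0.85 on the log2 scale. That difference was made of -1.08 for the mitochondrial mean and -0.22 for the nuclear mean. Nuclear subunits took 0.603% ± 0.0292 of counts in Myo5b KO livers and 0.665% ± 0.0335 in control livers, a 1.10-fold difference in which knockout 277 at 0.632% came close to control 279 at 0.641%.

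The erythroid marker sum separated the groups, as this contrast did. Over the 16 erythroid markers it was 2297, 3024, 2184 and 4490 CPM in Myo5b KO livers, against 11653, 9231, 8805 and 11500 CPM in control livers, so that knockout 278 was the nearest to controls in both measures. The knockouts ranked alike in both. The controls did not: control 281 had their lowest erythroid sum and their highest difference between the genomes (-0.55). With mean log2 CPM of those markers as a covariate, 0 of 13 mitochondrial mRNAs and 0 of 87 nuclear genes were called (edgeR). An unadjusted p under 0.05 was reached by 3 and 30 of them, and by 1539 of all 18274 genes. Medians in that fit were -0.51 for mitochondrial and -0.53 for nuclear genes, with 12 of 13 and 80 of 87 below 0. The covariate itself ran from 5.54 to 6.63 in Myo5b KO livers and from 7.59 to 8.02 in control livers, and this fit called 42 genes among all 18274; genotype and erythroid marker level cannot be told apart in these 8 livers. Without knockout 278 and control 282, 12 mitochondrial mRNAs and 22 nuclear genes were called, with medians of -1.25 and -0.23. Of the 22 nuclear genes called lower with all 8 livers and no covariate, 17 stayed lower in that fit. Cycling cell, macrophage and endothelial markers also separated the groups, and their part in the result was not tested.

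**Figure D5:**
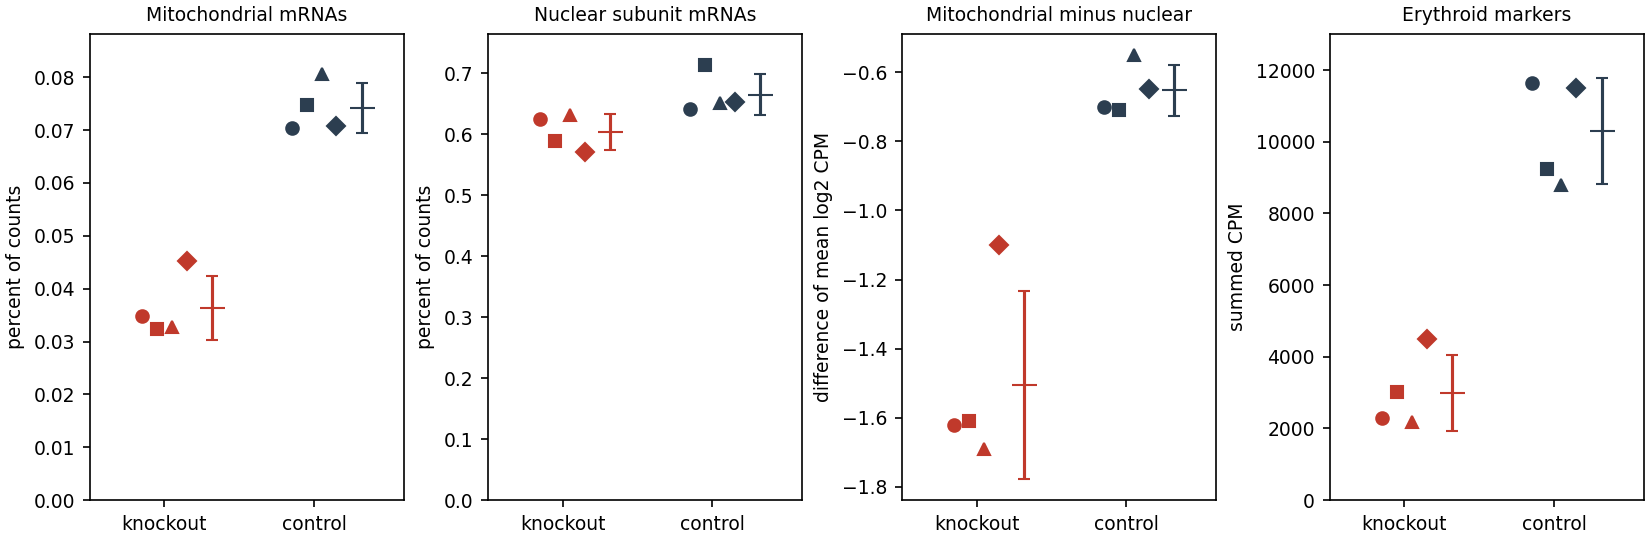
Share of counts on mitochondrial mRNAs and on nuclear subunits (percent), mean log2 CPM of mitochondrial minus nuclear subunit genes, and summed CPM of 16 erythroid markers, with 1 point per liver (Myo5b KO left in red, control right in dark blue; circle, square, triangle and diamond in order of animal number) beside the mean and SD. Knockout 278, the red diamond, is the knockout nearest to controls in every panel but that of the nuclear share.

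Levels can be compared between genes only per length. Per kb of annotated exon, mitochondrial mRNA levels ran from 6.97 CPM (mt-Nd3) to 47.9 CPM (mt-Nd2) in Myo5b KO livers and from 9.27 CPM (mt-Nd3) to 98.7 CPM (mt-Nd6) in control livers. Nuclear levels ran from 0.401 CPM (Ndufa4l2) to 233 CPM (Atp5a1) in Myo5b KO livers and from 0.981 CPM (Ndufa4l2) to 274 CPM (Atp5a1) in control livers. As counted, the mitochondrial mRNAs thus lay within the range of the nuclear genes in both groups. Reads counted on their nuclear copies are not in these values, and the treatment of reads with several matches is not given. The mitochondrial levels may therefore be too low, and their rank among nuclear genes is not a measure of abundance in the liver. After Atp5a1 came Atp5b, at 139 CPM per kb in Myo5b KO livers and 179 in control livers, and Uqcrq, at 154 CPM per kb in Myo5b KO livers and 147 in control livers, so that Uqcrq was above Atp5b in Myo5b KO livers and below it in control livers. Exon lengths are those of all annotated transcripts together, which lowers the value of genes with long alternative transcripts.

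Promoters of nuclear respiratory genes are known for sites of the factors NRF1, the ETS family member GABP and YY1. A window of 300 bases from RefSeq (GRCm38.p6, 250 bases before to 50 after the start) was matched for 73 of the 87 nuclear genes and searched on both strands. The NRF1 letters, GCGCA and GCGC with 1 letter of any kind between them, were in 26% of these promoters and in 7.17% of those of all 17492 protein-coding genes. Among nuclear genes called lower 5 of 20 held them (25.0%), and among those not called 14 of 53 (26.4%). The ETS letters CCGGAAG were in 25.0% of lower genes, 24.5% of those not called and 12.9% of protein-coding genes. The YY1 letters AAGATGGC were in 20% of lower genes, 13.2% of those not called and 3.57% of protein-coding genes. The shares in lower and uncalled genes were close for NRF1 and ETS; no test was made, and a match is a stretch of letters, not a measured binding site. The 3 lower genes with the NRF1 letters in the 250 bases before the start are shown over 100 bases, with those letters in capitals.
Ndufa5, chr6:24527662-24527761, minus strand: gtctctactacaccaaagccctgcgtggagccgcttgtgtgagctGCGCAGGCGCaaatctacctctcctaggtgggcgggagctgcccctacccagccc
Sdha, chr13:74350284-74350383, minus strand: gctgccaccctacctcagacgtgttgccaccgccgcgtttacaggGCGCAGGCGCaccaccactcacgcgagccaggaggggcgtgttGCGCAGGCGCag
Cox6a1, chr5:115349066-115349165, minus strand: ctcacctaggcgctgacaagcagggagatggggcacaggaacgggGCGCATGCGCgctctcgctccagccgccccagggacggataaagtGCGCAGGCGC

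Lists of genes that serve the respiratory chain without being part of it held from 0% to 11.8% genes called lower, against 11.4% of all genes tested, so none held a share well above the background. Among assembly factors outside the rule, 1 of 11 for complex I was lower (Tmem70, log2 fold change -0.40, adjusted p = 0.0479, and 0.052 with DESeq2; Tmem186 stood at -0.27), and 1 of 19 for complex IV (Cmc2, -0.83, adjusted p = 0.0250; Taco1, which helps to translate mt-Co1, stood at -0.58, adjusted p = 0.0603, and 0.0464 with limma-voom). For complexes II and III and ATP synthase, edgeR, DESeq2 and limma-voom called 0 of 4, 0 of 5 and 0 of 3, with 0, 1 and 0 at an unadjusted p under 0.05. Their leading genes were Sdhaf2 (0.11) and Sdhaf4 (-0.25), Uqcc2 (-0.44) and Uqcc1 (-0.23), and Fmc1 (-0.31) and Atpaf2 (-0.13). The medians of these 5 lists ran from -0.20 to -0.01.

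Among electron carriers and coenzyme Q genes, 2 of 17 were lower, a share of 11.8% beside 11.4% of all genes. Coq8a, an atypical kinase needed for coenzyme Q synthesis, had 59.0, 77.7, 56.2 and 83.4 CPM in Myo5b KO livers, against 169, 215, 155 and 155 CPM in control livers. Etfa, which passes electrons from fatty acid oxidation, had 161, 132, 159 and 147 CPM in Myo5b KO livers, against 192, 221, 193 and 185 CPM in control livers. No knockout overlapped a control in either gene, and Coq8a, at -1.33 (SE 0.15, adjusted p = 5.69e-05), fell by as much as the mitochondrial mRNAs, whereas Etfa stood at -0.40 (SE 0.09, adjusted p = 0.00327).

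The machinery that copies and transcribes mitochondrial DNA was mostly uncalled, with 1 higher and 1 lower of 18 and a median of -0.04. Polg, the mitochondrial DNA polymerase, had 122, 115, 129 and 107 CPM in Myo5b KO livers, against 97.8, 99.0, 92.4 and 103 CPM in control livers (log2 fold change 0.27, SE 0.08, adjusted p = 0.0296). Ssbp1, which coats single-stranded mitochondrial DNA, had 17.2, 17.8, 13.1 and 16.6 CPM in Myo5b KO livers, against 22.0, 21.1, 22.8 and 20 CPM in control livers (log2 fold change -0.41, SE 0.13, adjusted p = 0.0356). Both had groups apart, in opposite directions. Of 19 genes for processing and stability of mitochondrial RNA, Ptcd3 (-0.42, adjusted p = 0.00599) and Ptcd2 (-0.40, adjusted p = 0.0464) were lower, both pentatricopeptide proteins, and the median was -0.06. DESeq2 and limma-voom called Ptcd3 but not Ptcd2, at adjusted p of 0.0518 and 0.0569.

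Among 10 regulators of nuclear respiratory genes, only Ppara, a receptor that drives fatty acid oxidation, passed the test, at 156, 168, 176 and 155 CPM in Myo5b KO livers, against 195, 185, 193 and 206 CPM in control livers (log2 fold change -0.25, SE 0.08, adjusted p = 0.0283). Ppargc1a, a coactivator of mitochondrial biogenesis, stood at 0.16 (SE 0.30, adjusted p = 0.768) and its relative Pprc1 at 0.31 (SE 0.12, adjusted p = 0.0762). Of 24 genes for import, membrane and matrix, 2 were lower: Vdac1, the main outer membrane channel (-0.48, SE 0.09, adjusted p = 0.00122), and Cs, citrate synthase, often used as a measure of mitochondrial content (-0.41, SE 0.11, adjusted p = 0.0124). Cs had 53.2, 65.2, 54.4 and 76.3 CPM in Myo5b KO livers, against 83.1, 85.7, 84.1 and 77.0 CPM in control livers, with knockout 278 again nearest to the controls. The list had a median of -0.07. Without the 3 libraries that held muscle transcripts, which leaves 5 livers, the log2 fold changes were as large or larger for Cs (-0.45), Polg (0.33), Ppara (-0.26), Ptcd3 (-0.48), Ssbp1 (-0.52) and Tmem70 (-0.43) and smaller for Cmc2 (-0.45), Etfa (-0.31), Ptcd2 (-0.30) and Vdac1 (-0.36). None of these 10 was called in that fit, and Coq8a was (-1.29).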

How the data were processed

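Values are raw counts by Ensembl gene, deposited by the authors and made with Rsubread 2.20.0 (R 4.4.1, BiocManager 1.30.26) per the labels' protocols; the submitters' processing notes name featureCounts. The build, written GRMm38, was read as GRCm38. The annotation, the strand setting and how reads with several matches were treated were not given in the sources used here. The authors used DESeq2 1.46.0 per the series' design text.

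Genes kept by filterByExpr (minimum count 10, minimum total 15) were tested with edgeR 4.0.16 (R 4.3.3): TMM scaling, robust quasi-likelihood F-test, no covariate, Benjamini-Hochberg adjustment over 18274 genes, threshold 0.05. The SE is the log2 fold change divided by the square root of F. Log2 CPM used a prior count of 2. Copies were found with blastn 2.17.0. Replicates are separate animals. DESeq2 1.42.0 and limma-voom 3.58.1 were alternatives. The script was tested on simulated data.

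The respiratory chain genes and all lists were chosen with earlier results of these data known. Named are every mitochondrial mRNA, every gene past the threshold, tissue isoforms, per complex the 3 nuclear genes with the smallest p and the largest rise and fall, and per list the 2 with the smallest p. Other genes were named after their values were seen. The values of 1 gene are not reported here.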

Additional observations from a re-analysis of the deposited data

Results flagged for a closer look

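In 7 of 204 groups of 4 livers, 1 liver lay far from the other 3 by Dixon's ratio (above its critical value), which chance gives in about 1 of 20 groups. Knockout 278 had a difference of -1.10 between mean log2 CPM of mitochondrial and nuclear subunit genes, against -1.69 to -1.61 in the other knockouts. Knockout 277 had 27.3 CPM of Ndufa11, a membrane arm subunit, where the other knockouts had 20.7 to 21.4 CPM. The same liver had 19.9 CPM of Atp5e, the epsilon subunit, against 25.0 to 25.8 CPM. Control 279 had 2.73 CPM of mt-Atp8, against 4.00 to 4.29 CPM in the other controls. Control 280 had 104 CPM of Sdhc, against 78.5 to 79.7 CPM, and 66.8 CPM of Cox8a, against 55.2 to 56.8 CPM. Control 281 had 20.5 CPM of Ndufa7, against 23.1 to 23.6 CPM.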

How the results depend on the processing

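The 12 mitochondrial calls stood at 12 under median-ratio scaling, library size alone, no low-count filter, a minimum of 1 CPM in 4 libraries, DESeq2, limma-voom and each omission of 1 library; they were 13 with copies added, 11 without knockout 276 and controls 280 and 282, and 0 with the erythroid covariate. The nuclear count of 22 was 20, 17, 21, 25, 21 and 23 under the same first 6 settings, 27 with copies added, 15 to 23 on omitting 1 library, and 0 both without knockout 276 and controls 280 and 282 and with the covariate; 2 were higher with library size alone. Over all genes, 1694 higher and 2088 lower became 592 and 1014 without those 3 livers, 23 and 19 with the covariate, and 2300 and 1696 with library size alone. The difference in mitochondrial share, -0.0378 percentage points, was -0.0512 with copies added, and ran from -0.0408 to -0.0357 on omitting 1 library. The mitochondrial minus nuclear difference of -0.85 ran from -0.99 to -0.79 (-0.99 without knockout 278), and was -0.82 with copies added. With the covariate, the sign turned for Atp5s (-0.73), Cox7a2l (-0.08), Ndufs7 (-0.03), Sdhc (-0.83), Uqcrq (-0.27), mt-Nd4l (0.11), Cs (0.27), Hand2 (-0.18), Polg (-0.04), Ppargc1a (-2.20, adjusted p = 0.00912, edgeR) and Tnni2 (-2.36), none of them called there except Ppargc1a. On omitting 1 library, Sdhc ran from -0.06 (without knockout 275; -0.00166 without control 282) to 0.14, Ppargc1a from -0.02 (without knockout 275) to 0.38, and Sdhaf4 from -0.46 to 0.08 (without control 280). The muscle genes Tnni2 and Tnnt3 turned with limma-voom (-0.36 and -0.27) and without knockout 276 (-2.40 and -3.32), against up to 2.14 and 1.63 without control 280, and Tnni2 without the 3 livers (-0.06). The cause of these changes was not tested. No paired analysis was possible because no replicate number is shared between the groups. Leaving out livers and adding copies were chosen after the data were seen. At 36 to 55 counts per library, mt-Nd3 has the least depth among the mitochondrial mRNAs after mt-Atp8.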

Other observations

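Nuclear respiratory chain genes have near-identical copies too: 23 copies of 15 of them passed the same identity limits. Of the 22 that were tested, 6 were lower and 0 higher, against 11.4% and 9.27% of all genes tested. Their median log2 fold change was -0.23. Reads from near-identical stretches could be counted at either place, so these copies are not a result separate from that of their genes. BC002163, which matches Ndufs5 at 99.37% over 319 bases, held 3437 counts over 8 libraries, against 1834 for Ndufs5, and averaged 21.9 ± 2.66 CPM in Myo5b KO livers and 31.5 ± 2.30 CPM in control livers (SD, n = 4 each; log2 fold change -0.52, SE 0.12, adjusted p = 0.00467). Gm10039, 1 base from Atp5g1 over 411 bases, held 5415 counts against 1562, with a log2 fold change of -0.37 (adjusted p = 0.0367). Gm15920, a copy of Ndufa12, averaged 9.04 ± 1.45 CPM in Myo5b KO livers and 14.6 ± 2.80 CPM in control livers (log2 fold change -0.69, adjusted p = 0.00965). With copies added, Atp5g1, Ndufa12, Ndufab1, Ndufb4 and Ndufs5 became lower and none of the 22 calls was lost. Ucp1, the uncoupling protein of brown fat, had 83 counts in control 280 and 0 to 2 in the other 7 libraries.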
